A study of Mus musculus with 6 samples.

Results

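The 43 genes described here mark the maturation of granulocytes and monocytes. They were taken by name, with no measured value used, from a table of read counts for 27179 genes. All 43 were in the table: 7 transcription factors, 7 genes of primary granules and early progenitors, 15 genes of late granules and mature neutrophils, and 14 genes of monocytes, macrophages and other phagocytes. The table covers 6 libraries of GFP-marked leukaemia cells sorted from spleens of C57BL/6 mice by GFP and viability. Of these, 3 libraries came from vehicle treatment and 3 from treatment with panobinostat, a histone deacetylase inhibitor, for 3 days. Every library, vehicle included, carries the same genotype by its label, A/E9a;NRASG12D;Ifnar1-/-: the A/E9a fusion (a short form of AML1-ETO), a mutant NRAS and no functional type I interferon receptor subunit Ifnar1. The labels list this genotype as 1 cell line and do not say how many animals or clones it represents, so every p-value reflects the spread among these libraries alone, and that spread may be partly technical.

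Granulocytes and monocytes arise from common progenitors under the control of a small set of transcription factors. PU.1, encoded by Spi1, and the C/EBP factors bind near the start sites of many granule and phagocyte genes, and the balance between PU.1, C/EBP alpha and GATA factors separates the granulocyte and monocyte lines from the erythroid and mast cell lines. Neutrophils make their granules in waves: primary granule proteases in promyelocytes, then secondary and tertiary granule proteins as the cells mature. The AML1-ETO fusion keeps the DNA-binding domain of RUNX1 and is known for blocking granulocytic maturation.

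To show which of these sequences stand directly upstream of the genes, the 120 bases before the annotated start are printed for 5 members (RefSeq promoters, GRCm38.p6, each 5′ to 3′ on the strand of the gene). Prtn3 and Elane are neighbouring primary granule genes, Itgam and Lyz2 are common labels of the myeloid line, and Fcgr3 was among the members with the most reads. Capitals mark a PU.1 core (GAGGAA), a C/EBP motif (TTGCNNAA, which need not be a palindrome) or a RUNX core (TGTGGT), each on either strand.
Prtn3, chr10:79879547-79879666, plus strand: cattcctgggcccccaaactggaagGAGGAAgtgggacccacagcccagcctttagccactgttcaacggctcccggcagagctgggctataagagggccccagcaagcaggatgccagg
Elane, chr10:79886192-79886311, plus strand: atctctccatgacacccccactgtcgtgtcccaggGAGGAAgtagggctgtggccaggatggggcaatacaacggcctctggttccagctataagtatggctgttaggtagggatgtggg
Itgam, chr7:128062520-128062639, plus strand: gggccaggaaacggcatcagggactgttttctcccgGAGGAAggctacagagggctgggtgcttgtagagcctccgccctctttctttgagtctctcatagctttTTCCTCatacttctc
Fcgr3, chr1:171059395-171059514, minus strand: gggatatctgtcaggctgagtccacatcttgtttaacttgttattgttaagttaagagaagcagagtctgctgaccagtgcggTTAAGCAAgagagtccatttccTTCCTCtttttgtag
Lyz2, chr10:117282273-117282392, minus strand: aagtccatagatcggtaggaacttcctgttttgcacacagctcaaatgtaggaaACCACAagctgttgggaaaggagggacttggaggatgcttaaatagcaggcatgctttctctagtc

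The PU.1 core stands 95 bases before the start of Prtn3 and 85 bases before that of Elane. Fcgr3 has a C/EBP motif and a PU.1 core, at 37 and 15 bases before the start used here. Promoters of 300 bases (250 before and 50 after the start) were matched for 34 of the 43 members, 39 promoters in all because some members have more than 1 annotated start, and such promoters share sequence. The PU.1 core was found in 22 of the 39, 56.4%, against 28.3% of all 32851 promoters of the same length. The C/EBP motif was found in 14, 35.9% against 10.8%, and the RUNX core in 10, 25.6% against 16.8%. A match describes letters only. Genes that both hold a PU.1 core differed in level: Fcgr3 reached 1 CPM (the count scaled by library size) in all 6 libraries, and Elane had 0 reads in 5 of the 6.

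Where 3 values are given for a group, they stand in the order of the library numbers 1, 2 and 3. Library totals ran from 31989622 to 35962605 counts. CPM values are scaled with edgeR's TMM factors for composition, and 3 reads equal 0.0834 to 0.0947 CPM. Across the whole table, counts of 2 (5245 values) outnumbered counts of 1 (4465), and counts of 4 (2377) outnumbered counts of 3 (1925), so single counts need not be independent molecules. The libraries did not sort cleanly by treatment. Vehicle library 1 had a Pearson r of 0.941 and 0.942 with the other vehicle libraries and of 0.954 to 0.984 with the panobinostat libraries, on log2 CPM across genes, which are not independent replicates. Fold changes that rest on it are therefore also given without it. Erythroid markers were abundant, with 12 of 13 in the table at 10 CPM or more in every library, as were 5 of 15 mast cell and basophil markers.

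Most members were near the limit of detection. Of 43, 4 (Cebpd, Cebpe, Ly6g and Fcnb) had at most 3 reads in every library, 10 had at most 10 reads in every library, and 22 stayed below 1 CPM in every library. A further 16 reached 1 CPM in some libraries but not in all. Only 5 members (Spi1, Cd68, Fcgr3, Lyz2 and Mpeg1) were at 1 CPM or more in all 6 libraries, and only Spi1 was at 10 CPM or more in all 6. Spi1 alone made up 52.8 to 73.1% of the reads counted over the 43 members. The number of members at or under 3 reads was 15, 12 and 13 with vehicle, and 21, 7 and 13 with panobinostat. These ranges overlap, with both the lowest and the highest count in the panobinostat group.

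**Figure D1:**
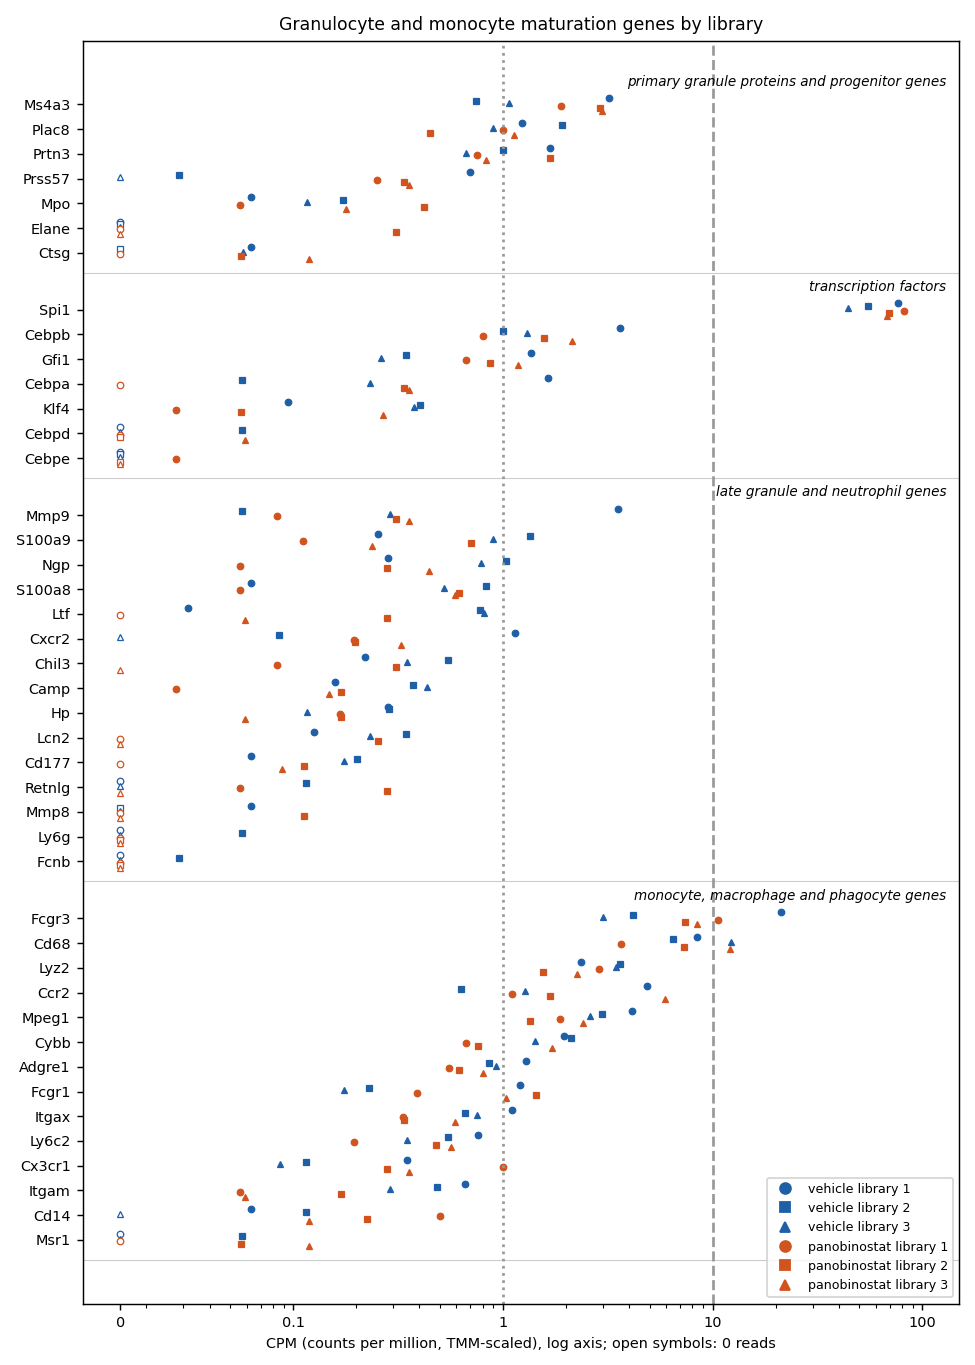
CPM on a log axis for each of the 43 members (rows, grouped by role and ordered by mean) in the 3 vehicle (blue) and 3 panobinostat (orange) libraries, 1 symbol per library, with open symbols at the left edge for 0 reads and vertical lines at 1 and 10 CPM. Spi1 is the one member to the right of 10 CPM in all 6 libraries, between 44.0 and 81.7 CPM, and most granule genes lie left of 1 CPM.

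Among the transcription factors, Spi1, which encodes PU.1 (chromosome 2, 91082374 to 91115759, GRCm38), was clearly expressed. It stood at 76.5, 54.8 and 44.0 CPM with vehicle, and at 81.7, 69.2 and 67.6 CPM with panobinostat. The groups overlapped because vehicle library 1 lay above panobinostat libraries 2 and 3. Means were 58.45 ± 16.5 CPM with vehicle and 72.85 ± 7.71 CPM with panobinostat (SD, n = 3), a log2 fold change of 0.32 (SE 0.213) with an adjusted p of 0.998 in edgeR's quasi-likelihood test. Without vehicle library 1 the log2 fold change was 0.55 (SE 0.137) with an edgeR adjusted p of 0.107, so the difference was not called in either fit.

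The C/EBP factors that drive granulocyte and monocyte maturation were low. Cebpa, the factor needed to form granulocyte-monocyte progenitors, had 52, 2 and 8 reads with vehicle and 0, 12 and 12 reads with panobinostat. Cebpb, a factor of monocytes and of emergency granulopoiesis, had 115, 35 and 45 reads with vehicle and 29, 56 and 72 reads with panobinostat. Both were highest in vehicle library 1 and lowest in panobinostat library 1, and their groups overlapped. The log2 fold change of Cebpa was -1.46 (SE 1.42) with all libraries and 0.64 (SE 1.32) without vehicle library 1, with edgeR adjusted p of 0.998 and 0.830. Cebpe, the factor of late granule genes, had 1 read in panobinostat library 1 and 0 in the others, and Cebpd had 2 reads in each of 2 libraries. Per kb of exon, these 4 factors were far below 2 genes of like name that are not tied to granulocyte maturation. Cebpa, Cebpb, Cebpd and Cebpe averaged 0.166, 1.16, 0.00519 and 0.00373 CPM per kb over the 6 libraries, while Cebpg, a widely expressed partner that lacks an activation domain, averaged 15.7 and Cebpz, a protein of ribosome assembly despite its name, 22.7.

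Gfi1 and Gfi1b showed the same contrast. Gfi1, the zinc finger repressor that neutrophil precursors need, had 43, 12 and 9 reads with vehicle and 24, 31 and 40 reads with panobinostat, or 0.245 CPM per kb on average. Its paralog Gfi1b, the repressor of the erythroid and megakaryocytic lines, averaged 213 CPM per kb and stood at 178 to 694 CPM. Klf4, a monocyte factor, had at most 14 reads. The level of Gfi1 was not called different between treatments, with a log2 fold change of 0.48 (SE 0.687), or 1.56 (SE 0.479) without vehicle library 1, and edgeR adjusted p of 0.998 and 0.155. Among 23 other myeloid transcription factors fixed as a list, 15 were at 10 CPM or more in every library, 0 were called in either direction, and 1 had an unadjusted p under 0.05 (higher). The 3 highest of them per kb were Gfi1b, Gata2 (154 CPM per kb), the progenitor and mast cell factor, and Gata1 (113 CPM per kb), the erythroid factor. Irf8, which directs monocyte and dendritic cell fate, stood at 1.89, 2.92 and 2.26 CPM with vehicle and 0.333, 0.955 and 1.78 CPM with panobinostat. It was the 1 gene of the 23 that lay wholly lower, and 1 other lay wholly higher. Over all 13207 genes tested, 479 lay wholly lower and 502 wholly higher. Like the summed B cell markers given below, Irf8 was highest in vehicle library 2 and lowest in panobinostat library 1. A link between them was not tested.

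**Figure D2:**
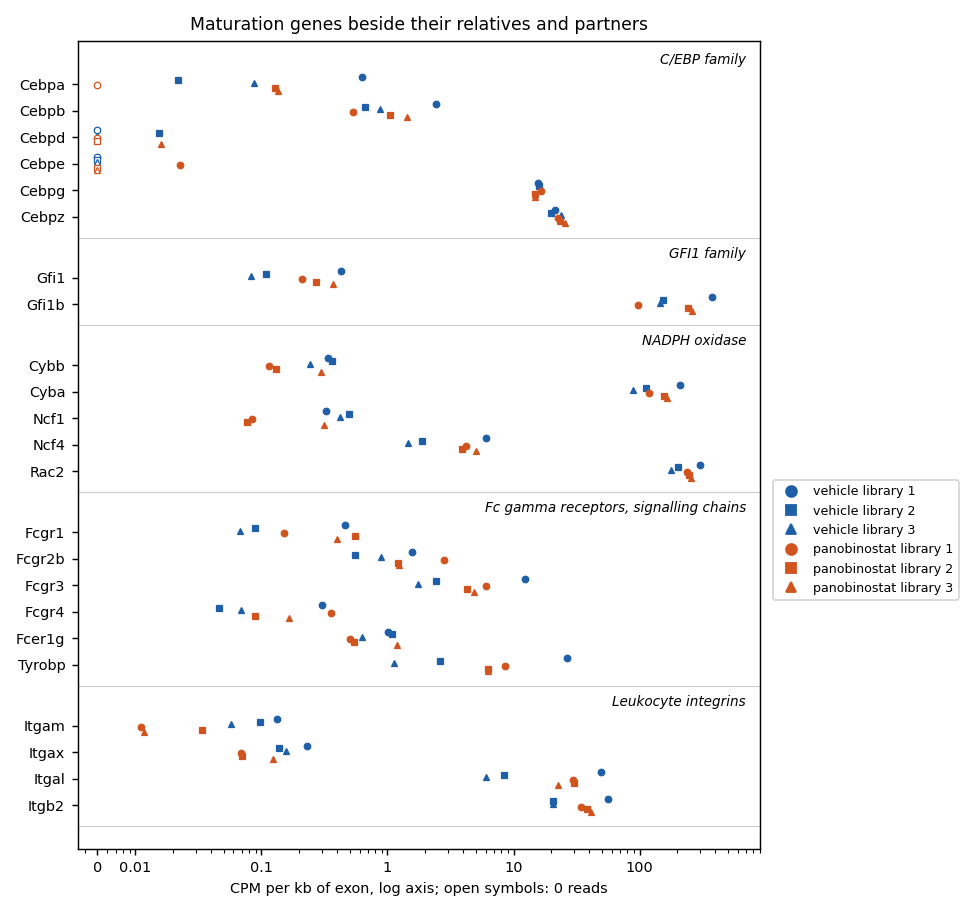
CPM per kb of exon on a log axis for maturation genes beside related genes or protein partners in 5 groups, 1 symbol per library (vehicle blue, panobinostat orange, open symbols for 0 reads). Cebpz is plotted with the C/EBP family by name only. Gfi1 lies at 0.0819 to 0.426 and Gfi1b at 97.35 to 379 CPM per kb, and Cybb at 0.115 to 0.365 beside its partner Cyba at 88.3 to 210 CPM per kb.

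Primary granule and progenitor genes gave no member at 1 CPM or more in all libraries. Mpo, the myeloperoxidase of promyelocytes, had 2, 6 and 4 reads with vehicle and 2, 15 and 6 reads with panobinostat. Elane, neutrophil elastase, had 0 reads in all vehicle libraries and 11 reads in panobinostat library 2 alone. Ctsg, cathepsin G, had at most 4 reads. Prtn3, proteinase 3, which lies upstream of Elane (chromosome 10, 79879667 to 79883174, GRCm38), was the one serine protease of this group counted in every library. It had 53, 35 and 23 reads with vehicle and 27, 60 and 28 reads with panobinostat, so the groups overlapped. In GENCODE, 9.18% of its exon bases are shared with the exons of Plppr3 on the other strand, and since the strand setting of the counting is not given in the sources used here, how many of the reads belong to each gene cannot be told apart.

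Ms4a3, a membrane protein of granulocyte-monocyte progenitors, had the most reads of this group, with 102, 26 and 37 with vehicle and 68, 103 and 100 with panobinostat. Prss57, a further serine protease of neutrophil granules, had 22, 1 and 0 reads with vehicle and 9, 12 and 12 reads with panobinostat. For both genes the panobinostat libraries lay above vehicle libraries 2 and 3, and below vehicle library 1, compared as CPM. The log2 fold changes were 0.62 (SE 0.586) for Ms4a3 and 0.40 (SE 1.29) for Prss57, with an edgeR adjusted p of 0.998 for each. Without vehicle library 1 they were 1.49 (SE 0.378) and 4.13 (SE 0.966), with edgeR adjusted p of 0.108 and 0.0959. Prss57 shares 40.7% of its exon bases with Fstl3 on the other strand. Plac8, a small cysteine-rich protein of several blood cell types, had 16 to 67 reads, with a log2 fold change of -0.65 (SE 0.484) and an edgeR adjusted p of 0.998.

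Other granule proteins, 16 genes fixed as a list, were uneven. Of these, 9 were tested, 0 were called and 0 had an unadjusted p under 0.05. The 3 highest per kb were Srgn, the proteoglycan core of many secretory granules (351 CPM per kb), Calr, a chaperone (174 CPM per kb), and Dstn, an actin-severing protein (66.3 CPM per kb), none of which is restricted to granulocytes. At the other end, 4 of the 16 had at most 3 reads in every library.

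Late granule and neutrophil genes were low throughout. Of 15, 5 passed the filter on low counts, and 0 of 15 reached 1 CPM in every library. Ngp, the neutrophilic granule protein, had 9, 36 and 27 reads with vehicle and 2, 10 and 15 reads with panobinostat. Ltf, lactoferrin of secondary granules, had 1, 27 and 28 reads and then 0, 10 and 2 reads in the same order. S100a9, a calcium-binding protein abundant in neutrophils, had 8, 47 and 31 reads and then 4, 25 and 8 reads, and its partner S100a8 had 2, 29 and 18 reads and then 2, 22 and 20 reads. All 4 genes were highest in vehicle library 2 or 3 and low in both vehicle library 1 and panobinostat library 1, and their groups overlapped.

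Camp (cathelicidin), Lcn2 (lipocalin 2), Chil3 (a chitinase-like protein) and Cd177 (a neutrophil surface protein) had at most 15, 12, 19 and 7 reads in any library. Ly6g, the neutrophil surface antigen, and Fcnb, ficolin B, had at most 2 reads and 1 read. Hp (haptoglobin), Retnlg (resistin-like gamma) and Mmp8 (neutrophil collagenase) had at most 10, 10 and 4 reads. Mmp9, the tertiary granule gelatinase, and Cxcr2, the chemokine receptor of mature neutrophils, followed another pattern. Mmp9 had 112 reads in vehicle library 1 and 2 to 12 reads in the other 5 libraries. Cxcr2 had 36 reads in vehicle library 1 and 0 to 11 in the others. The log2 fold change of Mmp9 was -2.36 (SE 1.41) with all libraries and 0.49 (SE 0.937) without vehicle library 1, with edgeR adjusted p of 0.998 and 0.814, so its sign rested on that library.

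The summed level of the 15 late granule genes was 6.22, 6.08 and 4.61 CPM with vehicle and 0.834, 3.79 and 2.31 CPM with panobinostat. The sums did not overlap between treatments, but this rested on Mmp9 in 1 library. Mmp9 made up 3.54 CPM of the sum in vehicle library 1 and 0.309 CPM in panobinostat library 2. With Mmp9 left out, vehicle library 1 lay below panobinostat library 2, so the sums overlapped. B cell markers, 12 genes, summed to 56.0, 122.5 and 81.8 CPM with vehicle and 9.86, 24.8 and 67.3 CPM with panobinostat. T cell markers, 11 genes, summed to 13.4, 14.9 and 10.6 CPM and then 2.28, 5.96 and 11.8 CPM. All 3 sums were lowest in panobinostat library 1. Their part in the level of the late granule genes was not tested. In bulk libraries, fewer cells of a type and less RNA per cell cannot be told apart.

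Phagocyte genes held the members that came next to Spi1. Fcgr3, the low-affinity IgG receptor of phagocytes, natural killer cells and mast cells (chromosome 1, 171051169 to 171065915, GRCm38), stood at 21.25, 4.19 and 3.02 CPM with vehicle, and at 10.6, 7.39 and 8.39 CPM with panobinostat. The 3 panobinostat libraries lay between vehicle library 1 and the other vehicle libraries. The log2 fold change was -0.11 (SE 0.737) with an edgeR adjusted p of 0.998, and 1.27 (SE 0.260) with an edgeR adjusted p of 0.0728 without vehicle library 1. Cd68, a lysosomal glycoprotein rich in macrophages but not restricted to them, stood at 8.46, 6.45 and 12.3 CPM with vehicle and 3.64, 7.33 and 12.15 CPM with panobinostat. Its log2 fold change was -0.23 (SE 0.468), and the groups overlapped.

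Fcgr1, the high-affinity IgG receptor, had 38, 8 and 6 reads with vehicle and 14, 51 and 35 reads with panobinostat. Ccr2, the receptor that draws monocytes out of the marrow, had 154, 22 and 44 reads with vehicle and 40, 60 and 201 reads with panobinostat. As for Fcgr3, the high values were in vehicle library 1 and in some panobinostat libraries. For Fcgr1 the log2 fold change was 0.84 (SE 0.865), or 2.21 (SE 0.706) without vehicle library 1, with edgeR adjusted p of 0.998 and 0.167. Fcer1g, the chain through which Fcgr1 and Fcgr3 signal, was itself low, at 16 to 35 reads, while Tyrobp, a related signalling chain, stood at 17.7, 1.75 and 0.754 CPM with vehicle and 5.75, 4.19 and 4.18 CPM with panobinostat. In CPM per kb, Fcgr3 averaged 5.26, Fcgr2b, the inhibitory IgG receptor, 1.38, Fcgr1 0.287 and Fcgr4 0.171. Reads of Fcgr3 and Fcgr2b are uncertain to the extent that these genes share sequence.

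Cybb, the catalytic chain of the phagocyte NADPH oxidase, was low beside several of its partners. It stood at 1.96, 2.12 and 1.42 CPM with vehicle and at 0.667, 0.759 and 1.72 CPM with panobinostat, an average of 0.248 CPM per kb. Its membrane partner Cyba averaged 142 CPM per kb, the cytosolic subunit Ncf4 3.76, and the GTPase Rac2 238. Lyn, a kinase of immune receptor signalling in the same list, averaged 50.2 CPM per kb. Ncf1, the organising subunit, averaged 0.286 CPM per kb, and its panobinostat libraries lay wholly below its vehicle libraries. Of the 22 genes fixed as a list of oxidase and phagocyte signalling, 16 were tested, 0 were called and 0 had an unadjusted p under 0.05. The other leukocyte integrin chains showed a like gap beside Itgam and Itgax: Itgal, the LFA-1 chain, averaged 24.3 CPM per kb and Itgb2, the shared beta chain, 35.3, against 0.0572 and 0.131 for Itgam and Itgax. The level of Itgam is uncertain, since 68.7% of its exon bases are shared with a second gene model, described below.

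Of 8 myeloid cytokine receptors fixed as a list, 3 were at 10 CPM or more in every library, while the receptors specific to the granulocyte and to the macrophage growth factor were low. Csf3r, the granulocyte colony-stimulating factor receptor, stood at 0.417 to 1.18 CPM, and Csf1r, that of macrophage colony-stimulating factor, at 1.43 to 3.69 CPM. Csf2rb, the beta chain shared by the receptors for interleukin-3, interleukin-5 and granulocyte-macrophage colony-stimulating factor, stood at 195 to 2541 CPM. Per kb, Csf3r and Csf1r averaged 0.242 and 0.436 CPM. The 3 highest of the list per kb were Csf2rb2 (210.7 CPM per kb), Csf2rb (146.5) and Csf2ra (7.83), and reads of the near-identical Csf2rb and Csf2rb2 can be split between them. The 8 receptors summed to 5366, 381 and 309 CPM with vehicle and 1729, 2034 and 2744 CPM with panobinostat. Averages over the 6 libraries therefore weigh vehicle library 1 most and hide a wide spread. Of the 8 receptors, 7 were tested and 0 were called.

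Of the 43 members, 25 passed the filter on low counts and 18 did not. The test of panobinostat against vehicle called 0 of the 25, as it called 0 of all 13207 genes tested (0%) in edgeR's quasi-likelihood test. Over all genes, 174 were higher and 127 lower at an unadjusted p under 0.05. Limma-voom called 0 genes and DESeq2 called 7 higher and 2 lower, with 0 members among them. The estimate was higher for 7 of the 25 members and lower for 18, with a median log2 fold change of -0.41, beside 6632 higher, 6575 lower and a median of 0.001 over all genes tested. This split rested in part on vehicle library 1: without it the same 25 members had 12 higher and 13 lower estimates with a median of -0.13, beside 6505 higher and 6864 lower over all genes. Without both libraries numbered 1 it was 13 higher and 11 lower among the 24 of them tested there. The late granule group, with 5 tested, had 5 lower estimates, and the phagocyte group, with 12 tested, had 9 lower and 3 higher. Since a member passes the filter when enough libraries, of either group or both, reach the minimum count, these counts describe the tested members only.

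**Figure D3:**
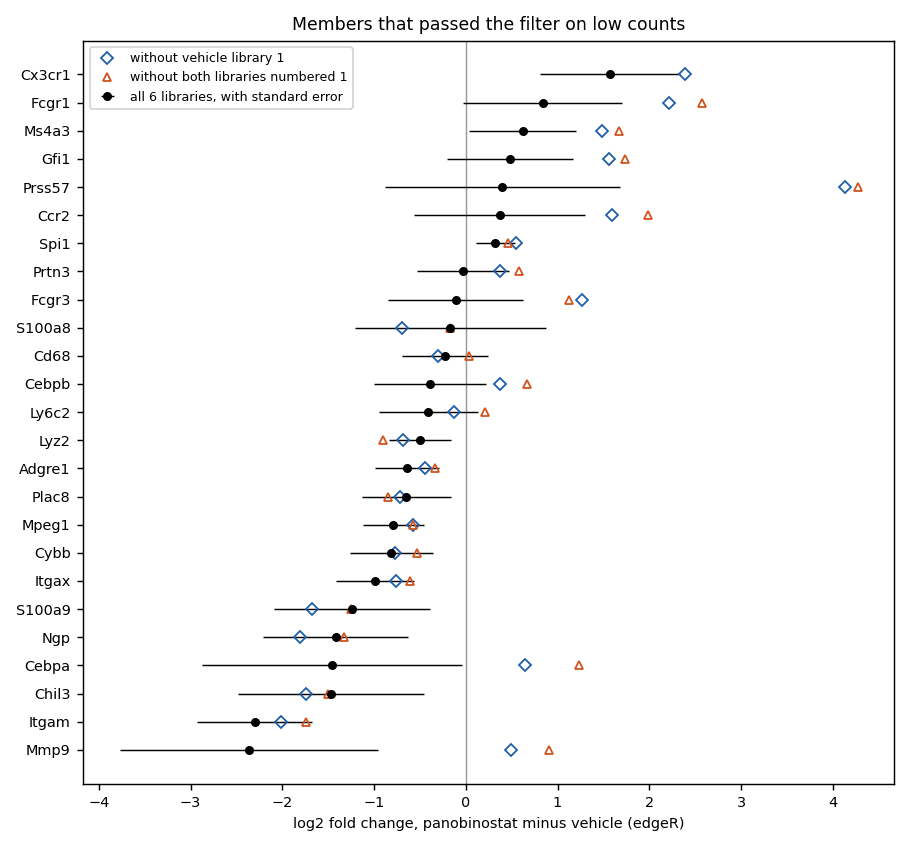
Log2 fold change of panobinostat against vehicle for the 25 members that passed the filter, with its standard error (black), and the estimates without vehicle library 1 (blue diamonds) and without both libraries numbered 1 (orange triangles). Mmp9 and Cebpa move from below 0 (-2.36 and -1.46) to above 0 (0.49 and 0.64) without vehicle library 1, while Itgam (-2.30 and -2.01) and Mpeg1 (-0.79 and -0.58) keep their sign.

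In 4 of the 25 tested members all panobinostat libraries lay below all vehicle libraries, beside 3.63% of all genes tested. Wholly above lay 0 tested members, beside 502 of all 13207 genes tested. All 4 are surface or phagosome genes of macrophages and related cells. Itgam, the CD11b chain, had 21, 17 and 10 reads with vehicle and 2, 6 and 2 reads with panobinostat. Itgax, the CD11c chain, had 35, 23 and 26 reads and then 12, 12 and 20 reads. Adgre1, the F4/80 antigen, had 41, 30 and 32 reads and then 20, 22 and 27 reads. In all 3 genes, only a few reads separated the highest panobinostat library from the lowest vehicle library.

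Mpeg1, perforin-2 of phagosomes, stood at 4.14, 2.95 and 2.61 CPM with vehicle and 1.86, 1.35 and 2.40 CPM with panobinostat. Log2 fold changes were -2.30 (SE 0.629) for Itgam, -0.99 (SE 0.424) for Itgax, -0.64 (SE 0.349) for Adgre1 and -0.79 (SE 0.334) for Mpeg1, with an edgeR adjusted p of 0.998 for each. Itgam was the only member with an unadjusted p under 0.05, at which 0.962% of all genes were lower. In GENCODE, 68.7% of the exon bases of Itgam are shared with a second gene model, Gm49368, on the same strand, and how reads shared by both were counted is not given in the sources used here.

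Markers of other cell types also differed in level between the libraries. Of the 12 B cell markers, 12 had a lower estimate and 3 lay wholly lower, beside 3.63% of all genes tested. Of the 11 T cell markers, 11 had a lower estimate and 0 had groups that did not overlap. Of 13 erythroid markers tested, 12 had a lower estimate, but the median log2 fold change was -0.10, and 0 had groups that did not overlap. Their sum was 27190, 17470 and 11600 CPM with vehicle and 5790, 21200 and 26490 CPM with panobinostat. Of 13 mast cell and basophil markers tested, 12 had a higher estimate, with a median log2 fold change of 0.75. Wholly higher lay 1 of them, beside 502 of all 13207 genes tested. The mast cell and basophil sum was 4995 CPM in panobinostat library 1 against 2676 to 3002 in the others. Of 4 dendritic cell markers tested, 3 had a higher and 1 a lower estimate, with 1 wholly higher and 1 wholly lower. In the list of 24 other monocyte and macrophage genes, 17 were tested, with 7 higher and 10 lower estimates, a median log2 fold change of -0.06, 0 called, and 2 that lay wholly lower. C1qa, a complement gene of tissue macrophages, stood at 2.24, 1.32 and 1.10 CPM with vehicle and 1.06, 0.843 and 2.19 CPM with panobinostat, and its groups overlapped. The 3 highest of that list per kb were the lysosomal genes Ctsd (249 CPM per kb), Lamp1 (84.1) and Ctsb (54.5), which many cell types express. The part of B cells, T cells, erythroid cells, mast cells, dendritic cells or spleen macrophages in the counts of Itgam, Itgax, Adgre1 and Mpeg1 was not tested.

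Lyz2, the lysozyme of monocytes and granulocytes, had 75, 126 and 119 reads with vehicle and 103, 55 and 76 reads with panobinostat. The groups overlapped, with a log2 fold change of -0.50 (SE 0.334) and an edgeR adjusted p of 0.998. Its near-identical neighbour Lyz1 had 20 to 41 reads, and reads of the pair can be split between them. Cx3cr1, the fractalkine receptor of patrolling monocytes, had 11, 4 and 3 reads with vehicle and 36, 10 and 12 reads with panobinostat, with a log2 fold change of 1.57 (SE 0.766) and an edgeR adjusted p of 0.998. That fold change was 2.39 without vehicle library 1 and 0.80 without panobinostat library 1. Ly6c2, a monocyte surface antigen with a close paralog in Ly6c1, had 24, 19 and 12 reads and then 7, 17 and 19 reads. Cd14, the lipopolysaccharide co-receptor, had 2, 4 and 0 reads and then 18, 8 and 4 reads, which as CPM did not overlap, at 0 to 0.115 with vehicle and 0.119 to 0.500 with panobinostat. Msr1, the macrophage scavenger receptor, had at most 4 reads. Neither Cd14 nor Msr1 passed the filter.

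Members fell into several profiles across the libraries. Of 43, 13 were highest in vehicle library 1 and 13 in vehicle library 2, against 3 in vehicle library 3 and 4, 6 and 4 in panobinostat libraries 1, 2 and 3. Of the 25 tested members, 12 were highest in vehicle library 1, where 22.4% of all genes tested were highest, and 11 were lowest in panobinostat library 1, where 20.4% of all genes were lowest. Mmp9, Cebpa, Cxcr2, Fcgr3 and Cebpb were high in vehicle library 1. Several but not all of the other lists also summed highest in that library. Megakaryocyte markers stood at 260 CPM against 62.3 to 173 in the others, and myeloid cytokine receptors at 5366 against 309 to 2744. Erythroid markers stood at 27190 CPM against 5790 to 26490, and other myeloid transcription factors at 4570 against 2521 to 3931. Ngp and S100a9 were high in vehicle libraries 2 and 3 and lowest in panobinostat library 1, as B cell markers were. Spi1 varied least of the members shown, between -0.54 and 0.35 around its mean on the log2 scale.

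**Figure D4:**
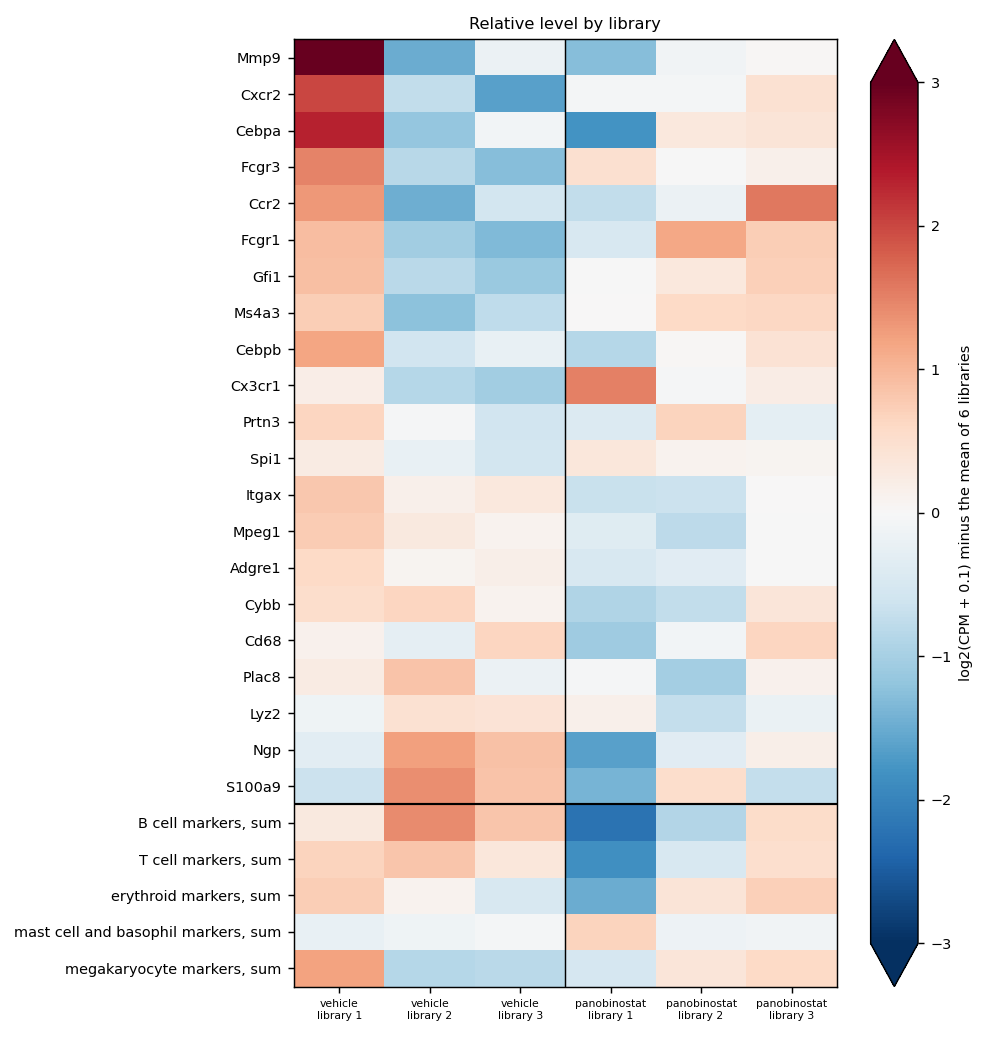
Log2(CPM + 0.1) of the 21 members that reached 1 CPM in some library, minus the mean over the 6 libraries (red higher, blue lower, colours end at -3 and 3), with the summed level of markers of 5 other cell types below the line. Rows are ordered by vehicle library 1 against the other vehicle libraries: Mmp9 stands 3.03 above its mean in vehicle library 1, and S100a9 stands 1.38 above its mean in vehicle library 2 and at -1.39 in panobinostat library 1.

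Vehicle library 1 bore on several of these comparisons. Without it, edgeR called 324 of 13369 genes, 2.42%, and 0 members. Without both libraries numbered 1, an alternative fixed with earlier results of these data known, edgeR called 974 of 13239 genes higher (7.36%) and 616 lower, 12% in either direction, and 4 of 27 tested members were called, all higher. These were Fcgr1, with a log2 fold change of 2.58 (SE 0.488) and an edgeR adjusted p of 0.0227, Ms4a3 with 1.67 (SE 0.341) and 0.0285, Fcgr3 with 1.12 (SE 0.235) and 0.0310, and Prss57 with 4.27 (SE 1.04) and 0.0486. Each rests on 2 libraries per group, and Prss57 on 1 and 0 reads in the vehicle libraries that were left. The 4 lower members named above were not called in that fit, with edgeR adjusted p of 0.190 for Itgam, 0.472 for Itgax, 0.644 for Adgre1 and 0.356 for Mpeg1.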

How the data were processed

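The deposited table holds raw whole-number read counts per Entrez gene for 6 libraries, as the authors deposited them without normalization. The tools named are HISAT2 2.1.0, featureCounts, Subread 2.0.0, cutadapt 2.1 and the build mm10, per the submitters' processing notes. Not given in the sources used here: their options, order, strand setting and annotation. Library numbers come from the column names, which the labels do not link to a replicate. Symbols were matched for 25275 of 27179 identifiers through RefSeq (GRCm38.p6, the assembly of mm10). Exon lengths, used for CPM per kb, are the union of GENCODE vM21 exons, in place of the RefSeq exons first intended.

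The comparison used R 4.3.3 with edgeR 4.0.16 (filterByExpr with a minimum count of 10, TMM factors, robust quasi-likelihood F-test, two-sided, Benjamini-Hochberg adjustment over all genes tested, threshold 0.05). The standard error is the log2 fold change divided by the square root of F. The script was tested on simulated counts, with changes set only in genes with more reads than most members have. That test therefore does not cover members with low counts. A member is detected at 1 CPM or more, and clearly expressed at 10 CPM or more, in every library. Named-gene rule: values per library for detected members and for members whose groups do not overlap or whose unadjusted p is under 0.05, counts and ranges for the others, and the 3 highest genes per kb of each other list. Values per library of further members, and other genes named from the lists, were chosen after their values were seen. The members and lists were chosen with earlier results of these data known. Alternatives were other scalings, filters and tests (limma 3.58.1, DESeq2 1.42.0), a replicate block and libraries left out. A count of 0 allows up to 3 counts, which covers counting error only. The values of 1 gene of the oxidase list are not reported here.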

Additional observations from a re-analysis of the deposited data

How the results depend on the processing

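The count of genes called was 0 higher and 0 lower in edgeR under each other scaling (RLE, upper quartile, none), under both other filters, at a threshold of 0.01 and with the robust option off, and in limma-voom; DESeq2 gave 7 higher and 2 lower. Leaving out 1 library gave 0 to 268 higher and 0 to 56 lower, the highest without vehicle library 1, and leaving out both libraries numbered 1 gave 974 higher, 616 lower and 4 members called. With a limit of 10 reads in place of 3, 10 members were at or under the limit. A vehicle and a panobinostat column share each number, which may mark a pair, though no label says so. Deviations from the group means had an r of -0.139, 0.072 and -0.203 for numbers 1, 2 and 3, which gave no sign of pairing, and the fit with the replicate block called 0 genes and 0 members.

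Of 385 fold changes of members under an alternative, 361 kept their sign and 24 did not, and 15 of the 25 members kept it throughout. Leaving out 1 library moved log2 fold changes across 0 for Prtn3 (-0.50 to 0.37), Prss57 (-0.19 to 4.13), Cebpa (-2.00 to 0.64), Cebpb (-0.74 to 0.37), Mmp9 (-2.92 to 0.49), S100a8 (-0.69 to 0.51), Ccr2 (-0.69 to 1.59), Cd68 (-0.73 to 0.11) and Fcgr3 (-0.53 to 1.27). Without both libraries numbered 1 the sign turned for Prtn3 (0.58), Cebpa (1.23), Cebpb (0.67), Mmp9 (0.91), Ly6c2 (0.21), Cd68 (0.04) and Fcgr3 (1.12), and that of Fcgr3 also in limma-voom (0.46) and with the replicate block (0.44). The cause was not tested. At these depths, members with under 10 reads allow no statement about a difference.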
